A study of Mus musculus with 8 samples.

Results

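Macf1, Dst, Utrn, Ahnak, Syne1, Syne2, Birc6, Mycbp2, Herc1 and Huwe1 are 10 genes with very long coding transcripts. They were taken by symbol from the 22298 genes of the mRNA table, and all 10 were found. The set was chosen by measured counts, CPM and FPKM of these same libraries, so their levels are given as a description and no test was made on them. RNA came from 4 stages of B cells sorted by surface B220 from the bone marrow of female wild-type C57BL/6 mice aged 8 to 10 weeks, for which the labels name no treatment. The gate was B220+IgM-CD43+ for the pro-B stage and B220+IgM-CD43- for the pre-B stage, whereas immature cells were taken as B220+IgM+CD43- and mature cells as B220hi IgM+CD43-. Cells of 3 mice were pooled for each stage, and 1 rRNA-depleted long RNA library was sequenced per stage. There are therefore no replicates, no difference between stages has a replicate check, and the 95% intervals given here are exact (Clopper-Pearson) and cover counting error only.

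Giant proteins of this kind act as scaffolds and linkers. Macf1 and Dst are spectraplakins, which tie actin filaments to microtubules. Utrn (utrophin) links actin to the dystroglycan complex of the plasma membrane, and Ahnak is a scaffold under the plasma membrane that binds annexin and S100 proteins. Syne1 and Syne2 encode nesprins, which span the outer nuclear membrane and couple the nucleus to the cytoskeleton through the LINC complex. Birc6, Mycbp2, Herc1 and Huwe1 are very large enzymes of the ubiquitin system that mark proteins for degradation or regulate them, and Birc6 is also an inhibitor of apoptosis. Developing B cells pass from immunoglobulin heavy chain rearrangement at the pro-B stage, through light chain rearrangement in pre-B cells, to surface IgM on immature B cells and to mature B cells that also carry IgD.

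The 4 libraries fell into a pair with much mRNA and a pair with little. The mRNA table summed to 867920 estimated counts in pro-B cells and 849350 in mature B cells, but to 240231 in pre-B cells and 223495 in immature B cells. The number of mapped fragments, worked back from the counts and FPKM values of 10 mitochondrial genes, was similar in all 4 libraries, between 5258470 and 5745263. Annotated mRNA thus took 16.0% and 16.1% of mapped fragments in the pro-B and mature B libraries and 4.18% and 4.25% in the pre-B and immature B libraries. Unannotated assembled transcripts took 49.2% and 49.9% in the first pair and 58.9% and 59.6% in the second. Between 11928 and 12798 genes had 1 count or more in the first pair, against 10281 and 10380 in the second. The B-lineage markers Cd79a, Cd79b, Ptprc, Pax5 and Ebf1 were above 0 in every library, and Pax5, the factor that holds B cells to their lineage, had 844 to 1958 CPM. Dntt, the terminal transferase of pro-B cells, had 974 CPM in pro-B cells and was at 0 in the 3 other libraries, and Fcer2a, the CD23 gene of mature B cells, had 421 CPM in mature B cells and was at 0 in the 3 others. The 4 pre-B markers summed to 1278, 1066, 576 and 15.2 CPM from pro-B to mature B cells, and so did not single out the pre-B library. Those of immature B cells summed to 4337, 7530, 9504 and 5087 CPM, although Cd93 among them was highest in pro-B cells (429 CPM). Their summed counts were 3764, 1809, 2124 and 4321, so this list was highest in immature B cells by CPM but not by counts.

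All 10 genes had fewer counts, lower CPM and lower FPKM at the pre-B stage than in pro-B cells, where CPM is the estimated count per 1000000 counts of the library's mRNA column total. Summed over the 10 genes, the libraries held 5637, 418, 492 and 6719 counts in order of development (here and below: pro-B, pre-B, immature, mature). These sums were 0.649% (95% interval 0.633 to 0.667), 0.174% (0.158 to 0.191), 0.220% (0.201 to 0.240) and 0.791% (0.772 to 0.810) of the mRNA counts. The share was thus 3.73-fold lower at the pre-B than at the pro-B stage (interval 3.38 to 4.13), and 3.59-fold higher in mature than in immature B cells (3.28 to 3.95), or 2.25-fold higher without Macf1. Between pre-B and immature B cells it differed by 1.26-fold (1.11 to 1.44). Fewer cells carrying a transcript and less of it per cell cannot be told apart in these bulk libraries.

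**Figure D1:**
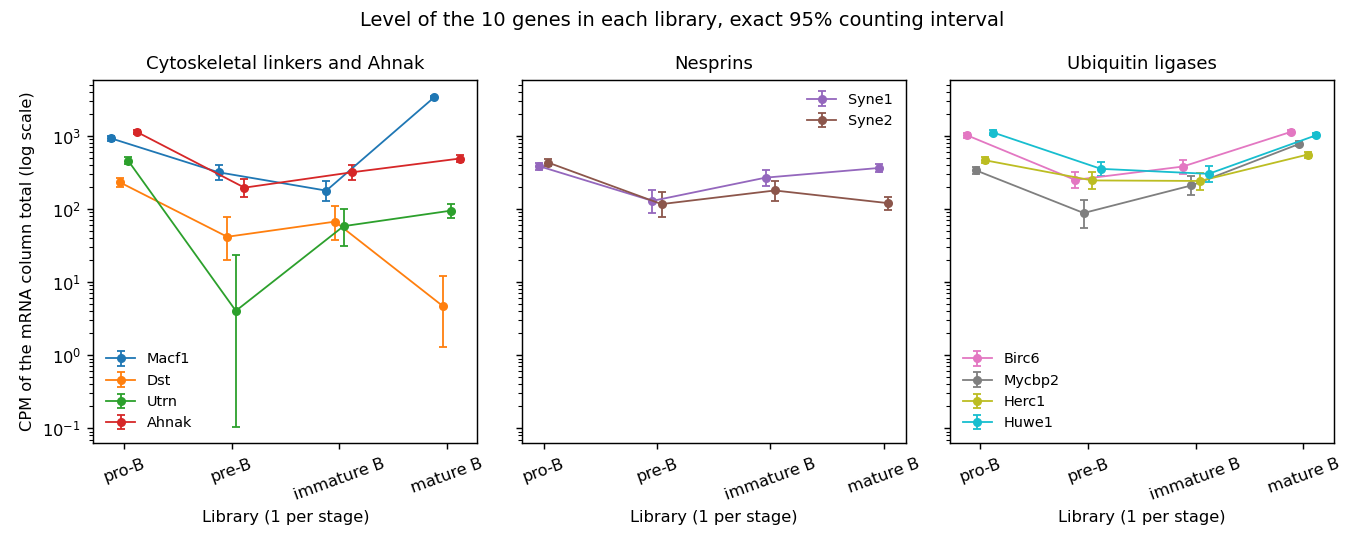
CPM of each of the 10 genes (y axis, log scale) in the 4 libraries (x axis, 1 library per stage), grouped by the role of the protein; bars are exact 95% intervals for counting error. Every gene was lower at the pre-B than at the pro-B stage, Macf1 reached 3356 CPM in mature B cells, and Dst ended at 4.71 CPM.

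Among the cytoskeletal linkers, Macf1 and Dst, the 2 spectraplakins, took opposite ends in mature B cells. Macf1 had 804, 76.2, 39.8 and 2851 counts in the 4 libraries, or 926, 317, 178 and 3356 CPM. Its FPKM was 16.1, 1.27, 1.15 and 56.5. On the CPM scale Macf1 was 2.92-fold lower at the pre-B than at the pro-B stage (interval 2.31 to 3.76), a further 1.78-fold lower in immature B cells (1.19 to 2.66), 18.8-fold higher in mature than in immature B cells (13.7 to 26.3) and 3.62-fold higher in mature B than in pro-B cells (3.35 to 3.92). Mature B cells thus stood above the 3 other stages, and immature B cells were lowest. Macf1 made up 14.3% of the summed counts of the 10 genes in pro-B cells and 42.4% in mature B cells. Without it, the summed share was 0.557% in pro-B cells and 0.455% in mature B cells, 1.22-fold lower in mature B cells, whereas with it the share was 1.22-fold higher there (1.18 to 1.26). The 18.8-fold difference was larger than that of 97.4% of the 7589 genes with 40 or more counts over the 4 libraries.

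Dst, the other spectraplakin, was highest in pro-B cells. It had 202, 10, 15 and 4 counts from pro-B to mature B cells, or 233, 41.6, 67.1 and 4.71 CPM, and its FPKM was 5.48, 0.36, 0.43 and 0.07. Its CPM was 49.4-fold lower in mature B than in pro-B cells (interval 19.0 to 183), and 14.3-fold lower in mature than in immature B cells (4.54 to 59.0). Pre-B and immature B cells could not be separated at this depth (ratio 1.61, interval 0.678 to 4.01).

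Utrn was also highest in pro-B cells. It had 398, 0.97, 13 and 80.7 counts, or 459, 4.04, 58.2 and 95.01 CPM, and its FPKM was 9.70, 0.05, 1.02 and 2.11. With about 1 count in pre-B cells, the ratio of pro-B to pre-B cells was 114, and its interval ran from 19.7 to 4362. In mature B cells Utrn was 4.83-fold lower than in pro-B cells (3.78 to 6.18). Immature and mature B cells differed by 1.63-fold with an interval that included 1 (0.907 to 3.21).

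Ahnak had 984, 47, 71 and 416 counts, or 1134, 196, 318 and 490 CPM, and an FPKM of 11.85, 1, 1.65 and 4.61. It was the gene with the most counts of the 10 in pro-B cells. Its CPM was 5.79-fold lower at the pre-B than at the pro-B stage (interval 4.32 to 7.94), then higher at each later stage, and in mature B cells still 2.31-fold lower than in pro-B cells (2.06 to 2.60).

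The nesprins parted between pro-B and mature B cells. Syne1 had 334, 31, 60 and 309 counts, or 385, 129, 268 and 364 CPM, and an FPKM of 8.03, 0.37, 1.41 and 5.53. Its CPM in pro-B and mature B cells could not be separated (ratio of mature B to pro-B 0.945, interval 0.807 to 1.11). Syne2 had 374, 28, 40 and 102 counts, or 431, 117, 179 and 120 CPM, and its FPKM was 3.31, 1.73, 0.69 and 2.24. On the CPM scale Syne2 was 3.59-fold lower in mature B than in pro-B cells (2.88 to 4.51), and pre-B and mature B cells had nearly equal levels. Its FPKM gave another order of the stages, 1.48-fold lower in mature B than in pro-B cells and 3.25-fold higher in mature than in immature B cells, where CPM was 1.49-fold lower. Gene FPKM adds up isoforms of different length, and the transcript length that count and FPKM imply for Syne2 was 20.8 kb in pro-B, 2.82 kb in pre-B, 11.0 kb in immature B and 8.61 kb in mature B cells.

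The 4 ubiquitin ligases were low in pre-B and immature B cells and near or above the pro-B level in mature B cells. Birc6 had 880, 60, 85 and 959 counts, or 1014, 250, 380 and 1129 CPM, and an FPKM of 18.5, 1.53, 2.26 and 20.9. Huwe1, an E3 ligase with a HECT domain, had 965, 85, 67.6 and 868 counts, or 1112, 354, 302 and 1022 CPM, and an FPKM of 25.05, 1.96, 4.08 and 23.4. In mature B against pro-B cells Birc6 differed by 1.11-fold (interval 1.02 to 1.22) and Huwe1 by 0.919-fold (0.838 to 1.01), so both lay well inside 2-fold. Herc1, another HECT ligase, had 403, 59, 54 and 471 counts, or 465, 246, 242 and 555 CPM, and an FPKM of 5.44, 0.68, 1.1 and 5.88. Its CPM in pre-B cells was 1.89-fold lower than in pro-B cells (1.44 to 2.53), the smallest difference of the 10 genes. Mycbp2, a RING-type ligase known from axon growth, had 293, 21.1, 46.9 and 659 counts, or 337, 88.04, 210 and 775 CPM, and an FPKM of 4.21, 0.44, 0.59 and 8.62. It was 2.30-fold higher in mature B than in pro-B cells (2 to 2.65), the only ligase of the 4 past 2-fold there.

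Levels of different genes were compared per length, by FPKM. In pro-B cells Huwe1 (25.05), Birc6 (18.5) and Macf1 (16.1) were the highest of the 10 genes and Syne2 (3.31) was the lowest. In mature B cells Macf1 (56.5) stood above Huwe1 (23.4) and Birc6 (20.9), and Dst (0.07) was lowest. No spread between samples is known, so the order of close neighbours such as Dst (5.48) and Herc1 (5.44) in pro-B cells is not settled. FPKM also depends on the transcript length used. For Syne2 the implied length was 20.8 kb in pro-B cells and 12.5 kb pooled over the libraries, so its place as lowest is not settled either.

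Counted by a difference of at least 2-fold in CPM, 9 of the 10 genes, all but Herc1, were lower and 0 were higher at the pre-B than at the pro-B stage. Among the 7589 genes with 40 or more counts over the 4 libraries, 33.3% were lower and 15.3% were higher by that rule. All 10 genes passed that count minimum. Since the genes were chosen with these values known, their count is a description only. From pre-B to immature B cells 3 genes (Utrn, Syne1, Mycbp2) were higher and 0 lower, against 18.8% and 19.2% of all tested genes. Between immature and mature B cells 5 genes (Macf1, Birc6, Mycbp2, Herc1, Huwe1) were higher and 1 (Dst) lower in the latter, against 28.6% and 19.8%. Set against pro-B cells, mature B cells had 2 genes (Macf1, Mycbp2) higher and 4 (Ahnak, Utrn, Syne2, Dst) lower, against 10.8% and 18.3%. The median log2 change of the 10 genes was -1.88, 0.64, 0.93 and -0.10 in these comparisons, beside -0.44, 0.06, 0.25 and -0.12 over all tested genes.

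In pre-B against pro-B cells the direction was the same on 3 scales for all 10 genes, but the size was not. Per mapped fragment, the 10 genes were 7.23-fold (Herc1) to 434-fold (Utrn, with about 1 count) lower in pre-B cells, and by FPKM 1.91-fold (Syne2) to 194-fold (Utrn) lower. For each gene the CPM difference was smaller than that per mapped fragment, since CPM divides by the mRNA column total, and that total took fewer of the mapped fragments in pre-B cells. Set beside FPKM, it was smaller for all genes but Syne2, which was 3.70-fold lower by CPM. From pre-B to immature B cells the scales gave opposite directions for Syne2, 1.54-fold higher by CPM but 2.51-fold lower by FPKM. Huwe1 there was 1.17-fold lower by CPM and 2.08-fold higher by FPKM. The implied transcript length of Huwe1 was 7.55 kb in pre-B and 3.15 kb in immature B cells, so its FPKM ratio also carries a change of length. Between pro-B and mature B cells, where the mRNA total took 16.0% and 16.1%, CPM and counts per mapped fragment gave nearly equal ratios, 3.62 and 3.65 for Macf1 and 0.279 and 0.280 for Syne2.

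**Figure D2:**
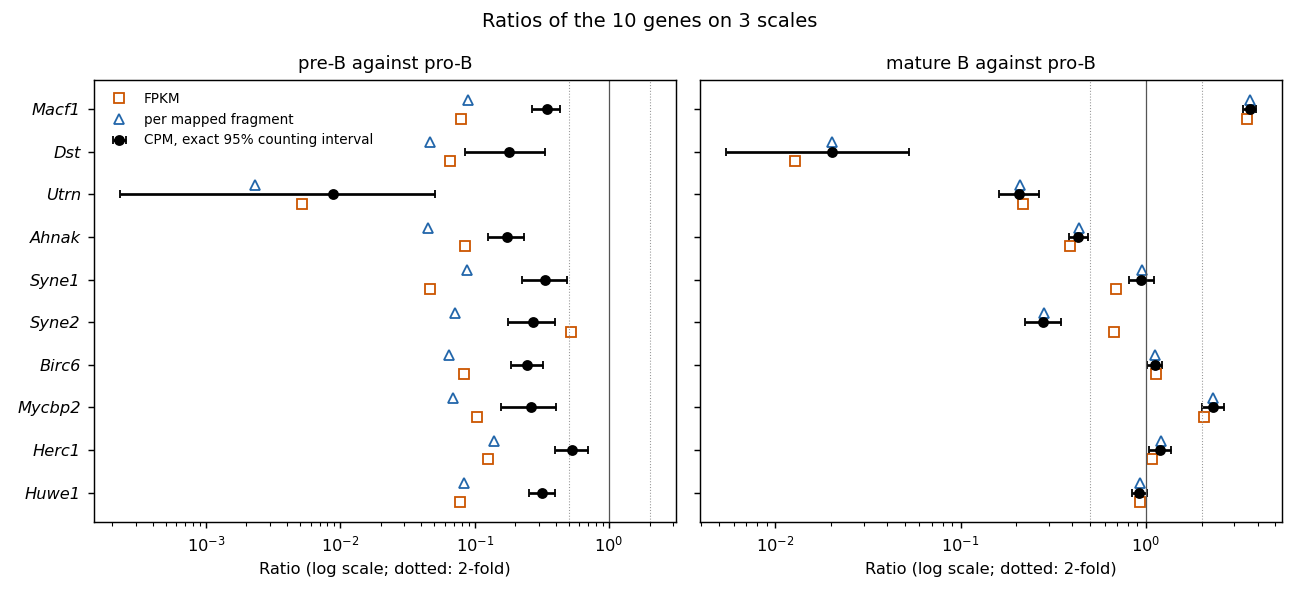
Ratios (x axis, log scale) of the 10 genes in pre-B against pro-B cells and in mature B against pro-B cells, by CPM with exact 95% counting intervals (black circles), FPKM (orange squares) and counts per mapped fragment (blue triangles). In pre-B cells all ratios lie below 1 on all 3 scales, and in mature B cells Macf1 and Mycbp2 lie above 2 while Dst, Utrn and Ahnak lie below 0.5.

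Other long transcripts were then set beside the 10 genes. A transcript length was implied for each gene by its counts, its FPKM and the number of mapped fragments, pooled over the libraries. This length is a mean over the isoforms the authors' program used, not a measured length. It was 6.70 kb (Dst) to 14.7 kb (Ahnak) for the 10 genes, longer than that of at least 95.7% of tested genes, and 7 of the 10 were in the class of 8 kb or more, which held 170 genes. In pre-B against pro-B cells the median log2 change went down from class to class, from 0.30 for the 647 genes under 1 kb to -0.21, -0.59, -0.82 and -0.97 for those of 1 to 2, 2 to 4, 4 to 8 and 8 kb or more. In mature against immature B cells it went up, from -0.42 under 1 kb to 0.03, 0.37, 0.64 and 0.76. From pre-B to immature B cells the medians of the shortest and the longest class were -0.08 and 0.14, and in mature B against pro-B cells -0.27 and 0.15. The steps along length were thus wide where a library of one pair was compared with a library of the other pair, and narrower within a pair. With no count minimum the longest class minus the shortest was 0.33 in place of 1.18 in mature against immature B cells and 0.10 in place of 0.43 in mature B against pro-B cells, and by FPKM it was -0.84 in place of -1.26 from pro-B to pre-B cells.

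**Figure D3:**
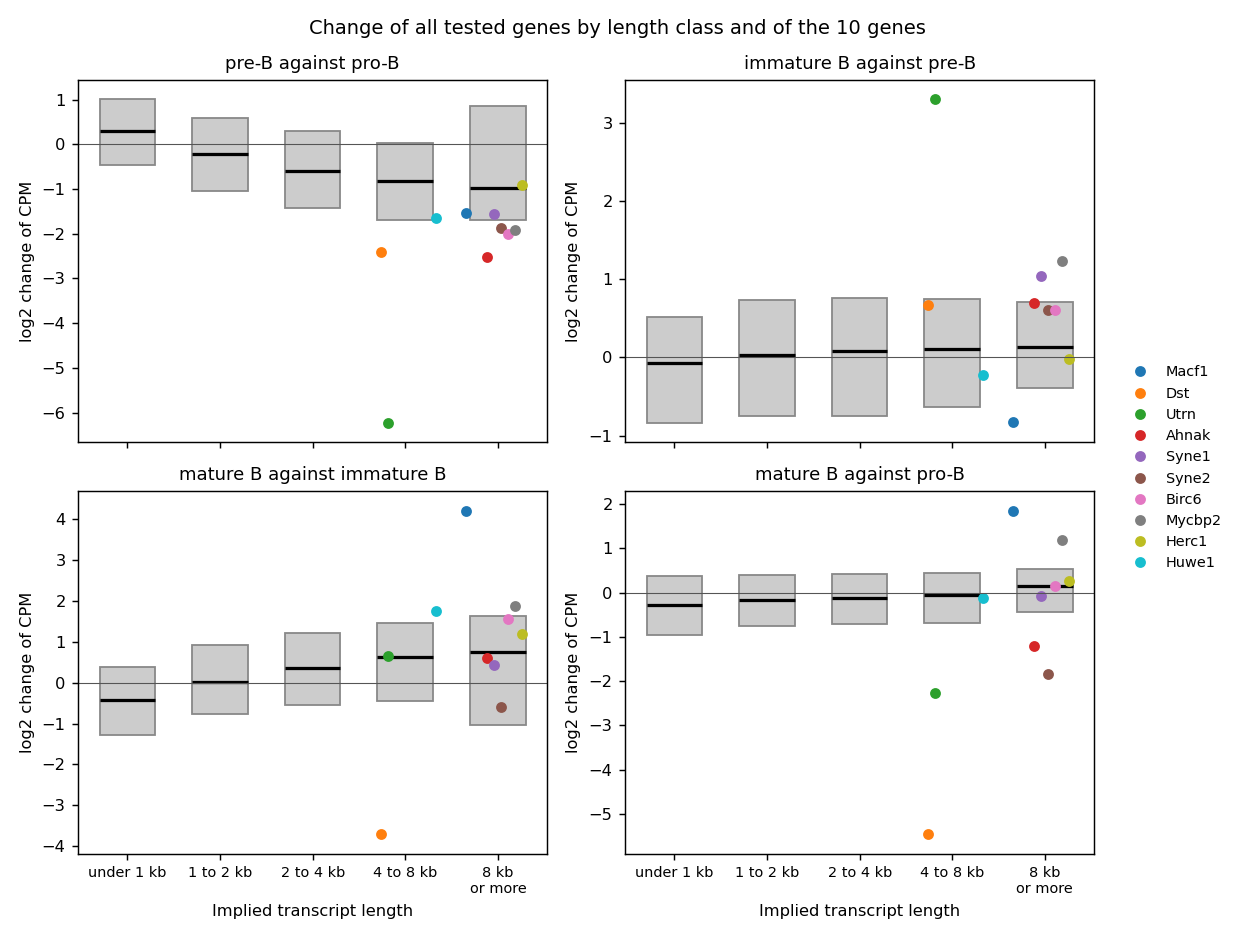
Log2 change of CPM (y axis) in 4 comparisons for 5 classes of implied transcript length (x axis); grey boxes span the first to the third quartile of all genes with 40 or more counts, black lines are medians, and coloured points are the 10 genes, spread sideways for legibility. Medians go down with length in pre-B against pro-B cells and up in mature against immature B cells, and Utrn, Dst and Macf1 lie farthest outside the boxes.

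Within the class of 8 kb or more, which holds the 10 genes but Utrn, Huwe1 and Dst, the course was not the same for every gene. In pre-B against pro-B cells 47.6% of the class were past 2-fold lower and 23.5% past 2-fold higher. Set beside this class, each of the 10 genes but Herc1 lay below its median, and 17.6% of the class was below Birc6 and 1.76% below Utrn. In mature B against pro-B cells, Macf1 was above 93.5% of the class and Mycbp2 above 88.2%. Dst was above 0.588% of it, Utrn above 5.29%, Syne2 above 6.47% and Ahnak above 12.4%. These genes thus lay near either end of the class between the 2 libraries with like mRNA shares, whereas Birc6 and Herc1 lay near its middle, above 50.0% and 56.5% of it.

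The 10 other longest genes with 400 or more counts came in 2 kinds. Rnf213, Dync1h1, Kmt2a, Ubr4, Htt and Lyst were lower at the pre-B than at the pro-B stage, with log2 changes of -0.99 (Ubr4) to -2.78 (Htt). Dync1h1, the heavy chain of the dynein motor, had 1225, 383, 295 and 1223 CPM from pro-B to mature B cells, a course like that of Huwe1. Kmt2a, a histone methyltransferase, had 849, 199, 225 and 949 CPM. The other 4, D10Wsu102e, Tmem72 and the vomeronasal receptor genes Vmn2r53 and Vmn2r60, went the other way in CPM and had nearly even counts. Tmem72 had 4254, 4454, 4791 and 4154 counts, which came to 4901, 18541, 21436 and 4891 CPM. Counts of these 4 genes per mapped fragment stayed within 1.13-fold (D10Wsu102e) to 1.65-fold (Vmn2r53) over the libraries.

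Several measures of the libraries moved with the summed share of the 10 genes, and others did not. Olfactory and vomeronasal receptor genes, which are known from sensory neurons, held 5992 to 6985 counts in every library, and thus 0.690% and 0.816% of mRNA counts in pro-B and mature B cells but 2.66% and 3.13% in pre-B and immature B cells. The 82 genes whose counts per mapped fragment stayed within 1.5-fold took 3.70%, 14.7%, 14.6% and 4.03% from pro-B to mature B cells. Since they were chosen for even counts per mapped fragment, their share had to be higher where mRNA took less of those fragments. The 20 genes with the most counts took 7.41%, 16.3%, 16.7% and 9.19%. The median transcript length weighted by counts was 2.73, 2.51, 2.51 and 2.72 kb, and mitochondrial genes took 2.90%, 4.39%, 4.34% and 3.34%. Each of these 5 measures put the pre-B and immature B libraries on one side and the pro-B and mature B libraries on the other, as the summed share of the 10 genes did. For the 82 genes this division was fixed by the way they were chosen. Ribosomal protein genes, at 2.61%, 3.67%, 3.48% and 3.64% of mRNA counts, and histone genes, at 0.659%, 1.12%, 0.547% and 0.342%, did not divide the libraries in this way. The class of 8 kb or more, which holds Tmem72 and D10Wsu102e as well as 7 of the 10 genes, took 5.67%, 8.33%, 9.25% and 6.98%, higher where the 10 genes were lower. The part of these measures in the low values of the 10 genes was not tested, and with 1 library per stage the stage and the library cannot be told apart. Leaving the 82 genes out of the total, the log2 change of the summed share from pro-B to pre-B cells was -1.72, beside -1.90 with them.

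**Figure D4:**
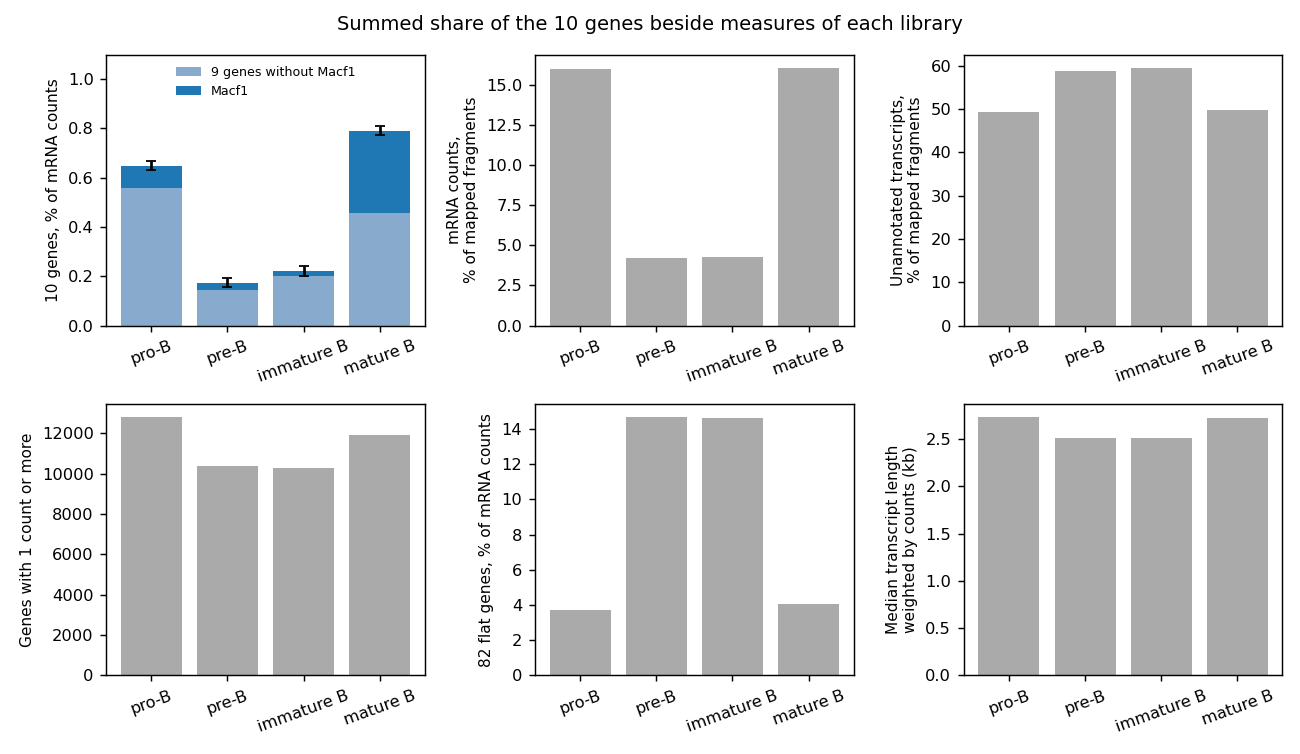
Summed share of the 10 genes in the mRNA counts (first panel, with Macf1 in dark blue and exact 95% counting intervals) beside 5 measures of the same 4 libraries; each bar is 1 library, and flat genes are those within 1.5-fold per mapped fragment. The pre-B and immature B libraries have the lowest summed shares (0.174% and 0.220%), the lowest mRNA shares, the fewest genes and the highest shares of unannotated transcripts and flat genes. By the way they were chosen, flat genes must take a higher share where the mRNA share is low.

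Markers of T and NK cells and of plasmacytoid dendritic cells were highest in the pro-B library. Dst, Utrn, Syne2 and Ahnak were highest there and past 2-fold above mature B cells. Syne1 (385 CPM) and Huwe1 (1112 CPM) were also highest there, but their ratios to mature B cells had intervals that included 1. The 6 markers of T and NK cells summed to 205 CPM in pro-B cells (5 of 6 above 0, Gzma at 122 CPM, Cd3e at 0), and to 0, 0 and 5.89 CPM in the libraries of the later stages. The 4 markers of plasmacytoid dendritic cells summed to 1603, 395, 788 and 822 CPM, and of these Siglech, the most restricted, had 121, 0, 17.9 and 0 CPM. The other 2 markers of that list with the highest values, Irf8 and Tcf4, are also used by B cells. Myeloid markers were in a range of 843 to 1120 CPM in all 4 libraries, with Csf1r and Cd14 at 0 in each. Erythroid and megakaryocyte markers summed to 282, 259, 103 and 152 CPM, also highest in the pro-B library, and plasma cell markers to 111 to 375 CPM. The part of such cells in the pro-B levels of the 10 genes was not tested.

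Known partners of the 10 proteins were counted by the same 2-fold rule, and each list was written with earlier results of these data known. Of the 22 cytoskeletal partners, 17 had 40 or more counts. From pro-B to pre-B cells 7 of these were lower and 1 higher, with a median log2 change of -0.95, against 33.3% lower, 15.3% higher and a median of -0.44 over all tested genes. The gene that was higher, the spectrin gene Sptb, had 81.8, 221, 188 and 45.9 CPM. Its counts were 71, 53, 42 and 39, so Sptb was highest at the pre-B stage by CPM, whereas by counts the pro-B library was highest. From immature to mature B cells its counts were nearly even, and only its CPM was past 2-fold lower. Mature B cells had 7 higher and 1 (Sptb) lower than immature B cells, where 28.6% and 19.8% of all tested genes were. Between pro-B and mature B cells 0 were higher and 1, the actin crosslinker Actn1, was lower, from 34.6 to 10.6 CPM, against 10.8% and 18.3% of all tested genes. Flna (filamin A) had 553 CPM in pro-B and 999 CPM in mature B cells. No partner on this list with 40 or more counts thus moved as far as Macf1, Dst or Utrn between these 2 libraries. Dag1, the dystroglycan whose complex Utrn binds, had 55.3, 8.33, 49.2 and 30.6 CPM, and Dtnb (dystrobrevin beta) had 25.3, 33.3, 0 and 45.9 CPM.

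For the nuclear envelope, 10 of 13 genes were tested, and 6 were lower and 0 higher at the pre-B stage than in pro-B cells, against 33.3% and 15.3% of all tested genes. Of these 10 genes 5 (Sun1, Sun2, Emd, Tmpo, Tor1aip1) were higher and 2 (Lmna, Lmnb2) lower in mature than in immature B cells, against 28.6% and 19.8%. Mature B cells had 0 higher and 4 lower than pro-B cells, against 10.8% and 18.3%. These 4 were the 3 lamin genes, which encode the filaments under the nuclear membrane, and Tor1aip1, a lamina-associated protein. Lmnb1 had 385, 171, 89.5 and 83.6 CPM, Lmnb2 62.2, 8.33, 80.5 and 25.9 CPM, and Lmna 57.6, 16.7, 26.8 and 13.0 CPM. Tor1aip1 had 56.3, 12.7, 0 and 4.89 CPM. It had 0 counts in immature and 4.15 in mature B cells, too few to tell these libraries apart. Sun1, which joins nesprins to the lamina, had 43.8, 33.3, 8.95 and 70.6 CPM, and Emd (emerin) had 72.1, 24.98, 31.3 and 91.9 CPM. Neither of the last pair was past 2-fold between pro-B and mature B cells, where Syne2 was. Lmna, Lmnb2, Sun2, Tmpo, Sptb, Anxa2 and Birc3 were named after their values were seen.

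Of the 8 Ahnak partners 5 were tested. From pro-B to pre-B cells 3 (Anxa2, Anxa6, S100a6) were lower and 1 (S100a10) higher, against 33.3% and 15.3% of all tested genes. Mature B cells had 2 lower and 0 higher than pro-B cells, against 18.3% and 10.8%. With 5 genes such counts say little about the list. S100a6 went from 86.4 to 21.2 CPM and Anxa1 from 164 to 54.2 CPM, the same direction as Ahnak. Anxa6 had 355 CPM in pro-B and 370 CPM in mature B cells. S100a10, which binds Ahnak together with annexin A2, had 44.9, 137, 62.6 and 34.1 CPM, with the pre-B library highest where Ahnak was lowest. Its counts were 39, 33, 14 and 29, so S100a10 was highest in pre-B cells by CPM but not by counts.

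Of the 27 other ubiquitin ligases and their partners 26 were tested, and 14 were lower and 0 higher at the pre-B stage than in pro-B cells, against 33.3% and 15.3% of all tested genes. Compared with immature B cells, mature B cells had 13 higher and 1 (Birc2) lower, against 28.6% and 19.8%. Birc2 had 2.07 counts in immature and 3 in mature B cells, too few to tell these libraries apart. Mature B cells had 3 (Herc4, Birc3, Usp34) higher and 2 (Birc2, Nedd4) lower than pro-B cells, against 10.8% and 18.3%. The median log2 change of the list was -1.17, 0.12, 1.01 and -0.04 in the 4 comparisons, beside medians of -1.88, 0.64, 0.93 and -0.10 for the 10 long genes and -0.44, 0.06, 0.25 and -0.12 over all tested genes. Birc2, an inhibitor of apoptosis like Birc6, had 94.8, 41.6, 9.26 and 3.53 CPM, while Birc6 was within 2-fold between pro-B and mature B cells. Birc3, of the same family, had 208, 225, 246 and 437 CPM. Nedd4, a HECT ligase, went from 262 CPM in pro-B to 84.8 CPM in mature B cells. Herc4, of the same family as Herc1, had 11.6, 0, 0 and 42.7 CPM, and the deubiquitinase Usp34 had 25.1, 0, 17.9 and 55.5 CPM.

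The genes whose profile over the 4 libraries was most like that of Macf1 were sought among the 1201 other genes with 400 or more counts, by the Euclidean distance of log2 CPM centred on its mean. Among the nearest were Satb1 (distance 0.13), Nfat5 (0.82), Zfp831 (0.87) and Cmah (0.91). Satb1, a chromatin organiser, had 122, 41.6, 19.6 and 440 CPM, with 4.38 counts in immature B cells. Nfat5, a transcription factor of the response to osmotic stress, had 198, 54.1, 47.9 and 427 CPM. Implied transcript lengths of these 4 genes ran from 1.81 kb (Satb1) to 9.80 kb (Zfp831), so the course was not limited to long transcripts. The nearest of the other 9 genes was Mycbp2 at rank 108, followed by Huwe1 at 123 and Birc6 at 131, and Dst was at rank 1191. Over 4 libraries such a distance describes these libraries only.

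The circRNA table held 1005 circular RNAs, and 1 of them was assigned to one of the 10 genes. novel_circ_000880 lies at chr1:34045654-34046599 on the minus strand, in positions as the authors' table gives them, with a spliced length of 946 bases, and is annotated as antisense to Dst. Of the 963 circRNAs whose source gene could be matched, 96.57% lay within the span of that gene in RefSeq on GRCm38, although the labels list mm9.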

How the data were processed

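The 4 long RNA libraries of the 8 samples were used, with stages taken from the labels. The authors mapped rRNA-depleted reads with HISAT2 2.1.0 in strand-specific mode and estimated transcript levels with StringTie 1.3.4, and they deposited gene tables with estimated counts, not normalized, and FPKM values. The circRNA table holds deposited counts of back-spliced reads per library. The miRNA table was not used. The mapped fragments of each library were computed from 10 mitochondrial genes with at least 100 counts, and CPM from the column totals. Log2 changes used a pseudocount of 0.5 and genes with 40 or more counts over the 4 libraries. A difference was counted past 2-fold. Named are the 10 genes, the 2 largest differences in each direction per list from pro-B to mature B cells, the 10 other longest genes, and the 5 profiles nearest to Macf1, of which 1 is not reported here. Genes named as markers come from lists of cell type markers. The 10 genes and all lists were chosen with earlier results of these data known. With 1 library per stage no p-value was computed. Estimated counts were rounded for intervals. Python 3.11.15 (numpy 2.4.6, pandas 2.3.3, scipy 1.17.1, matplotlib 3.10.9) and R 4.3.3 were used, with edgeR 4.0.16 for TMM factors and DESeq2 1.42.0 for size factors as alternative scalings. No sequences are printed, since no protein or transcript sequence was used here.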

Additional observations from a re-analysis of the deposited data

Results flagged for a closer look

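Readouts of the 10 genes outside the mRNA table were seen in 3 cases, each above the limit that a count of 0 allows. In the lncRNA table, 10 transcripts carried the symbol of 5 of the 10 genes, and 3 of them had counts. The Macf1 transcript ENSMUST00000106213 had 118.85, 0, 8.52 and 723.74 counts in order of development (pro-B, pre-B, immature, mature), highest in mature B cells as the Macf1 gene of the mRNA table was, but lowest in pre-B cells, where that gene was lowest in immature B cells. The Huwe1 transcript ENSMUST00000147666 had 11.8, 0, 0 and 30.33 counts. The antisense circRNA novel_circ_000880 of Dst had 4 back-spliced reads at the pro-B stage and 0 at the later ones, which is too few to tell the stages apart. How the authors' program divided reads between these transcripts and the mRNAs of the same genes was not tested.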

How the results depend on the processing

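No paired analysis was possible because each stage has 1 library and the groups share fewer than 2 replicate numbers; for the same reason no replicate could be left out. No difference that was past 2-fold by CPM turned its direction. Some smaller differences did turn. On the log2 scale, Syne2 in mature against immature B cells was -0.59 by CPM, 1.70 by FPKM and 1.33 per mapped fragment. In immature B against pre-B cells Syne2 was 0.61 by CPM and -1.33 by FPKM, and Huwe1 was -0.22 and 1.06. On the log2 scale, the summed share in pre-B against pro-B cells was -1.90 and moved to -3.52 by FPKM, -1.72 with DESeq2 size factors, -1.75 without the 20 top genes, -2.45 relative to the class of 8 kb or more, -3.83 per mapped fragment and -1.72 without the flat genes. In immature B against pre-B cells it was 0.34 and moved to 0.61 by FPKM. In mature against immature B cells it was 1.84 and moved to 3.17 by FPKM, 2.25 relative to the 8 kb class, 3.76 per mapped fragment, 1.68 without the flat genes and 1.17 without Macf1. In mature B against pro-B cells it was 0.28 and moved to 0.43 with TMM, 0.46 with DESeq2 size factors, -0.0148 relative to the 8 kb class, 0.47 without Ahnak and -0.29 without Macf1. Of the 10 genes, 7 in place of 3 were higher and 1 in place of 0 lower in immature B against pre-B cells at 1.5-fold, and 1 was lower by FPKM. In mature against immature B cells 9 in place of 5 were higher by FPKM and per mapped fragment, and 2 in place of 1 were lower at 1.5-fold. The longest class minus the shortest class moved from -1.26 to -0.84 by FPKM in pre-B against pro-B cells, from 0.22 to 0 with 10 counts and with no filter in immature B against pre-B cells, and with no filter from 1.18 to 0.33 in mature against immature B cells and from 0.43 to 0.10 in mature B against pro-B cells. Of the values for single genes under the other scalings and the other pseudocount, 189 stayed within the counting interval and 51 moved outside it. Per mapped fragment, without the flat genes, without Macf1 and without receptor genes were alternatives chosen after seeing the data. Counts of 0.97 (Utrn, pre-B) to 85 in the pre-B and immature B libraries limit the ratios of single genes there. The same holds for listed partners, such as Dag1 with 2 counts in pre-B and Dtnb with 0 in immature B cells.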
